A study of Drosophila melanogaster with 30 samples.

Results

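Mitochondria carry their own ribosome, the mitoribosome, which translates the few proteins that the mitochondrial genome encodes, all of them subunits of the oxidative phosphorylation complexes. Its RNAs come from the mitochondrial genome, but its proteins are encoded in the nucleus, made on cytosolic ribosomes and imported. Some of these proteins descend from bacterial ribosomal proteins and others are found only in mitochondria. In flies, mutants of several of these genes are known for slow development and impaired respiration. The genes described here are the mitochondrial ribosomal protein genes of Drosophila melanogaster, chosen by name as every gene of the count table whose symbol is mRpL or mRpS followed by a number. This gave 73 of 17559 genes, 47 with a large-subunit (mRpL) and 26 with a small-subunit (mRpS) symbol. In mammals, the counterparts of mRpS30 and mRpS18A sit in the large subunit in spite of the letter, so the letters are used here as names only. The other mitoribosomal proteins looked for under symbols of their own were tko and bonsai, which encode the small-subunit proteins S12 and S15 in the fly, and they are given beside the 73.

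Poly(A) RNA was sequenced from single heads and single bodies of adult male flies of the Cantonized w1118 genotype, kept on a cycle of 12 h light and 12 h dark at 25 °C with 60% humidity. A sleep assay had picked out the individuals with fragmented sleep. The groups were aged SF (25 days old, fragmented sleep), aged NSF (25 days old, normal sleep) and young (5 days old, normal sleep), each with 5 head and 5 body libraries, 30 in all. No allele, transgene or drug is named in the labels beyond the genotype that all groups share, and sleep state was observed in the flies, not imposed on them. Nothing in the labels says whether a head and a body came from the same fly, and all libraries carry 1 batch date.

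Libraries held between 1685034 and 3597530 reads on genes in heads and between 2458538 and 8060238 in bodies, of which the 73 genes took 2799 to 10931. A gene with no reads has a floor of 3 counts per library, between 0.372 and 1.78 CPM (counts scaled to the library's total), which covers counting error only. Head markers summed to between 19365 and 38394 CPM in heads. Testis and accessory gland markers, which a head should lack, each summed there to 14.4 CPM or less, and the testis gene aly had no read in any head. Among bodies 2 libraries stood apart: the testis markers of aged NSF body 1 summed to 303 CPM against 2135 to 2983 in the other aged NSF bodies, and aged NSF body 2 had 667 CPM of head markers and 808 CPM of yolk and eggshell markers against at most 184 and 80.0 in the other aged NSF bodies. The 808 CPM came from the yolk genes Yp1, Yp2 and Yp3 (336, 172 and 299 CPM). The eggshell genes Vm26Aa, Cp36 and dec-1 each stood at 0.948 CPM or less in all aged NSF bodies. Body results of the mRp genes are therefore also given without these 2 libraries where they change. Calls of marker genes were not repeated without them. The samples are whole heads and bodies, so fewer cells of a type and less RNA per cell cannot be told apart in any value below.

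Of the 73 genes, 72 passed the filter on low counts in heads and in bodies. The exception was mRpL53 (2R:13954195-13955664, plus strand, dm6), which had 0 reads in all 30 libraries. All of its annotated exon sequence overlaps exons of AGO1 and CG33155. The remaining genes had modest counts: a member gene had a median of 44.0 reads per library in aged SF heads, 53.0 in aged NSF heads and 50.0 in young heads, and 80.5, 83.0 and 91.0 in aged SF, aged NSF and young bodies. Between replicates of a group the coefficient of variation of a member had a median of 25.5% in aged NSF heads and 27.9% in the young ones. The genes are spread over the genome, with 12 on 2L, 12 on 2R, 17 on 3L, 21 on 3R and 11 on X. Their annotated exons add up to a median of 783 bases, between 327 and 2078. Exon sequence is shared with another gene over at least 10% of its length in 10 members and not at all in 30. How the authors' counting treated strand is not given in the sources used here.

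Per kb of exon, on a scale set over all 30 libraries, the 72 measured genes averaged between 8.94 and 73.02 CPM per kb in heads, with a median level of 23.8. In bodies the level ran between 10.8 and 75 CPM per kb, with a median of 26.02. From the lower to the upper quartile the genes lay within a 1.61-fold range in heads and a 1.57-fold range in bodies. The level was highest in both tissues for mRpL28, a bacterial-type large-subunit protein, at 73.02 ± 20.9 CPM per kb in heads and 75 ± 17.8 in bodies (SD, n = 15 each). In heads it was followed by mRpS9 (48.3 ± 21.1 CPM per kb), a bacterial-type protein of the small-subunit head, by mRpL30 (48.0 ± 10.8) and by mRpS25 (45.5 ± 9.89), a small-subunit protein without a bacterial counterpart, and these 3 lay within 1 SD of each other. These SDs include differences between the groups. For mRpS9 the mean was 75.3 CPM per kb in young, 33.6 in aged SF and 36.2 in aged NSF heads. It lay above mRpL30 and mRpS25 in young heads only (42.1 and 36.95 in aged SF, 44.9 and 47.8 in aged NSF heads). In bodies the next genes were mRpL51 (50.7 ± 11.1 CPM per kb), a mitochondria-specific large-subunit protein, mRpL12 (50.6 ± 8.203), which forms the stalk that binds translation factors, and mRpS7 (48.5 ± 10.4), again within 1 SD. Below mRpL53, the lowest was mRpL21 in both tissues, at 8.94 ± 1.995 CPM per kb in heads and 10.8 ± 2.29 in bodies. Across the 72 genes the log2 levels in heads and bodies had a Pearson r of 0.783 and a Spearman rho of 0.73, given as a description only, since exon length and the annotation are common to both axes.

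The summed level of the 73 genes gives a first view of the groups. In heads the sum was 1355, 1503, 1412, 1540 and 1685 CPM in the aged SF group, 1453, 1519, 1780, 1715 and 1673 in the aged NSF group and 1673, 1806, 1970, 2038 and 1961 in the young group, on a scale set over the 15 heads. Young heads were highest and aged SF heads lowest on average (1499 ± 127 CPM in aged SF, 1628 ± 137 in aged NSF and 1890 ± 148 in young heads, SD, n = 5 each). The groups overlapped: 1 aged SF head and 2 aged NSF heads (1780 and 1715 CPM) lay above the lowest young head. In bodies the sum was 1308, 1339, 1442, 1394 and 1585 CPM in the aged SF group, 1702, 1616, 1774, 1798 and 1934 in the aged NSF group and 1598, 1355, 1402, 1635 and 1616 in the young group, on a scale set over the 15 bodies. On this scale every aged SF body lay below every aged NSF body, and the means were 1414 ± 109 CPM in aged SF, 1765 ± 118 in aged NSF and 1521 ± 132 in young bodies. As a plain share of reads, without scaling factors, the 73 genes took 0.133% to 0.161% in aged SF, 0.153% to 0.180% in aged NSF and 0.144% to 0.157% in young bodies, so that the aged groups overlapped. In heads the share was 0.141% to 0.179% in aged SF, 0.155% to 0.190% in aged NSF and 0.165% to 0.181% in young flies, and the highest value belonged to an aged NSF head. No test was made on these sums.

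**Figure D1:**
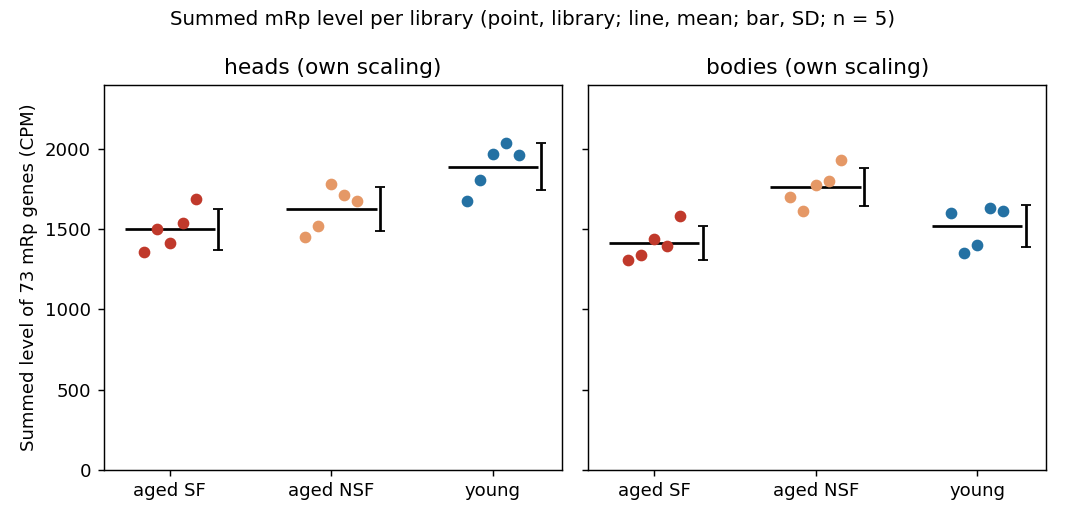
Summed level of the 73 mRp genes in CPM, 1 point per library, for aged SF, aged NSF and young flies in heads (left) and bodies (right), with the group mean (line) and SD (bar), n = 5 each. Heads and bodies were scaled separately. Aged SF heads averaged 1499 CPM and young heads 1890, while in bodies the 5 aged SF libraries, at 1308 to 1585, lay below the 5 aged NSF libraries, at 1616 to 1934, on this scale; as unscaled shares of reads these 2 groups overlapped.

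Large- and small-subunit genes were also summed apart. The ratio of the summed mRpL to the summed mRpS level ran over 1.54 to 1.76 in aged SF heads, 1.702 to 1.87 in aged NSF heads and 1.48 to 1.83 in young heads. In bodies it lay between 1.37 and 1.67 in aged SF, 1.68 and 1.78 in aged NSF and 1.502 and 1.68 in young flies. The 3 groups overlapped in heads. In bodies every aged NSF library had a higher ratio than every aged SF library, and the aged NSF and young groups overlapped. No test was made on the ratio.

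In heads of aged SF flies against young flies, 8 of the 72 tested genes fell and none rose, with edgeR's quasi-likelihood test and Benjamini-Hochberg adjustment over 9088 genes. Over all genes tested 12.2% fell and 13% rose, so the number of members that fell was no larger than the share over all genes. There were 16 members lower and 1 higher at an unadjusted p under 0.05, where 1630 of the 9088 genes were lower and 1640 higher. DESeq2 called 0 members higher and 8 lower. The median log2 fold change of the members was -0.28, beside -0.00 for all genes, and 55 of the 72 members lay below 0 (76.4%, beside 50.1% of all genes). In aged NSF heads against young heads 4 of the 72 members fell and none rose, where 11.5% of all genes fell and 11.4% rose. There 8 members were lower and none higher at an unadjusted p under 0.05, where 1544 of all genes were lower and 1550 higher. DESeq2 called 0 members higher and 4 lower. The median log2 fold change was -0.10, beside 0.02 for all genes, and 47 members lay below 0. Both comparisons use the same 5 young heads.

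The gene mRpS9 (FBgn0037529, 3R:7889277-7902667, minus strand, dm6) had the smallest adjusted p among the members in heads in both ageing comparisons. Its level was 54.4, 46.1, 51.1, 45.5 and 51.1 CPM in aged SF heads, 47.5, 44.7, 61.2, 59.2 and 44.8 in aged NSF heads, against 96.7, 84.7, 133, 120 and 99.2 in young heads. All 10 aged heads lay below all 5 young heads, and the aged groups overlapped each other. It fell by 1.10 on the log2 scale in aged SF heads (SE 0.156, adjusted p = 7.25e-06, edgeR) and by 1.04 in aged NSF heads (SE 0.156, adjusted p = 1.63e-05). In bodies its mean was 47.9 ± 11.2 CPM in aged SF, 48.0 ± 6.97 in aged NSF and 49.1 ± 4.85 in young flies (SD, n = 5 each). Of its exon sequence, 25.1% overlaps ArgRS-m (CG10092 in the count table), the mitochondrial arginyl-tRNA synthetase. CG10092 also fell in heads, by 0.67 on the log2 scale in aged SF heads (adjusted p = 0.0134) and by 0.74 in aged NSF heads (adjusted p = 0.00749), and without young head 2 the first of these lost its call (adjusted p = 0.0582). Whether reads of one gene were counted for the other was not tested.

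The gene mRpL43 (FBgn0034893, 2R:23698105-23699014, plus strand) encodes a large-subunit protein found in mitochondria only. Its level was 14.6, 14.6, 13.0, 22.4 and 14.54 CPM in aged SF heads, 14.55, 21.8, 17.6, 14.1 and 24.5 in aged NSF heads, against 25.0, 26.4, 34.3, 55.1 and 36.5 in young heads. Neither aged group overlapped the young group, although the highest aged NSF head came close to the lowest young head. It fell by 1.15 on the log2 scale in aged SF heads (SE 0.255, adjusted p = 0.00128, edgeR) and by 0.94 in aged NSF heads (SE 0.251, adjusted p = 0.00683).

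The gene mRpS14 (FBgn0044030, X:19479382-19480238, minus strand) encodes a bacterial-type protein of the small subunit. Its level was 12.6, 9.30, 10.4, 11.4 and 19.0 CPM in aged SF heads, 22.6, 31.4, 22.7, 16.3 and 23.3 in aged NSF heads, against 19.9, 25.8, 35.0, 61.2 and 35.3 in young heads. All aged SF heads lay below all young heads, and 4 of the 5 also lay below every aged NSF head. It fell by 1.49 on the log2 scale in aged SF against young heads (SE 0.285, adjusted p = 0.000284, edgeR). In aged SF against aged NSF heads the difference was -0.89 (SE 0.286, adjusted p = 0.259). Over 35.8% of its exon sequence it overlaps CG32533 and Naa15-16, and CG32533 stood at a log2 fold change of 0.02 in aged SF against young heads (adjusted p = 0.973).

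The gene mRpL28 (FBgn0031660, 2L:4973976-4975316, plus strand), the member with the highest level, had 57.6, 79.7, 67.5, 80.4 and 85.1 CPM in aged SF heads, 73.5, 85.6, 92.7, 87.0 and 111 in aged NSF heads, against 84.2, 113, 153, 142 and 112 in young heads. The aged SF and young groups overlapped by 1 library on each side. It fell by 0.70 on the log2 scale in aged SF against young heads (SE 0.163, adjusted p = 0.00206, edgeR). The gene mRpS35 (FBgn0035374, 3L:2780899-2782105, plus strand), a mitochondria-specific small-subunit protein, had 22.7, 30.1, 15.1, 20.1 and 29.1 CPM in aged SF heads and 29.6, 32.2, 38.9, 64.2 and 46.3 in young heads, with 1 aged SF head above the lowest young head. It fell by 0.85 on the log2 scale (SE 0.25, adjusted p = 0.0135), and without young head 4 its adjusted p was 0.0651. Without that library 4 members fell in place of 8, and without young head 1 there was 1 member that rose. The other members that fell in aged SF heads, outside the naming rule, were mRpL51 (log2 fold change -0.84), mRpL54 (-0.88) and mRpS11 (-0.86).

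In aged NSF against young heads the other members that fell were mRpS5 and mRpL51. The gene mRpS5 (3L:24537236-24543534, plus strand), a bacterial-type small-subunit protein, had 34.8, 23.5, 29.7, 18.5 and 24.5 CPM in aged NSF heads, against 44.9, 41.4, 40.2, 29.3 and 37.3 in young heads, and 2 aged NSF heads lay above the lowest young head. It fell by 0.56 on the log2 scale (SE 0.199, adjusted p = 0.0432, edgeR), and passed in 6 of 15 fits that each left out 1 head library (highest adjusted p 0.127, without aged NSF head 4). The gene mRpL51 (2L:8516753-8517380, minus strand) had 14.9, 15.3, 16.96, 15.5 and 17.3 CPM in aged NSF heads, against 22.7, 17.5, 30.4, 34.9 and 24.6 in young heads, without overlap. It fell by 0.69 on the log2 scale (SE 0.248, adjusted p = 0.0458) and passed in 4 of the 15 fits (highest adjusted p 0.141, without young head 4). Both calls were lost with no filter on low counts and with only the compared groups fitted. The count of members that fell was 2 without young head 3, without young head 5 or without aged NSF head 2.

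**Figure D2:**
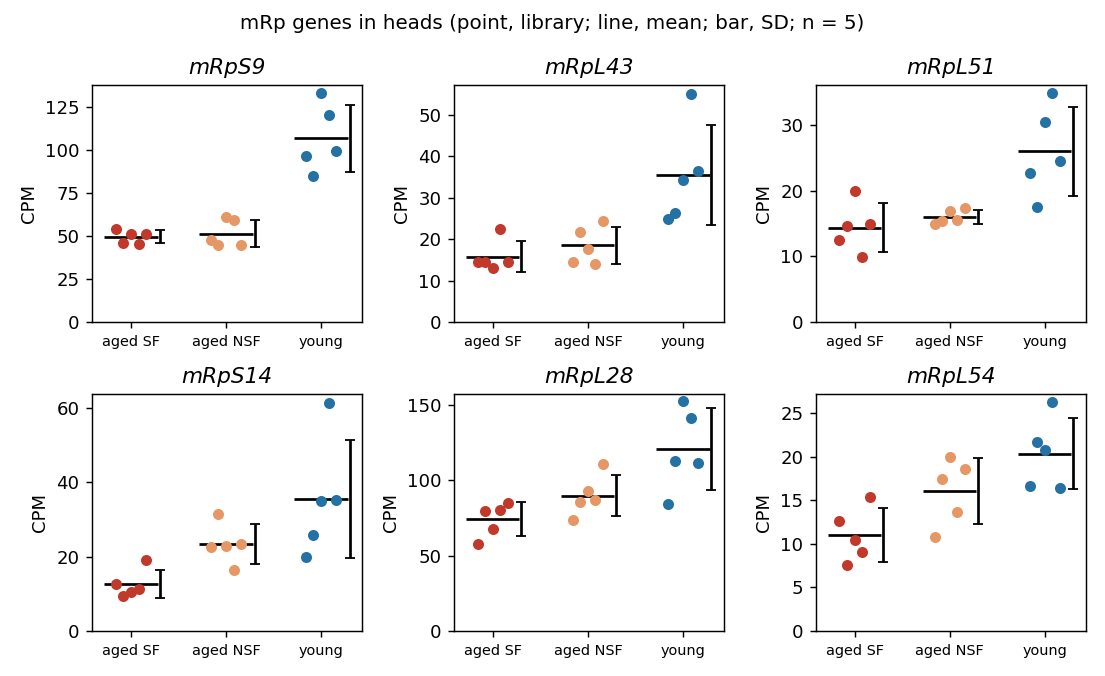
Level in CPM of 6 mRp genes in heads, 1 point per library, for aged SF, aged NSF and young flies, with the group mean (line) and SD (bar), n = 5 each. All 10 aged heads lie below all 5 young heads for mRpS9 and mRpL43, and mRpS14 lies between 9.30 and 19.0 CPM in aged SF heads against 19.9 to 61.2 in young heads.

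Groups of aged and young heads that did not overlap were counted as a description. In aged SF against young heads 4 members lay wholly lower (mRpL43, mRpL54, mRpS14 and mRpS9) and none wholly higher, where 8.59% of all genes tested lay wholly lower and 9.64% wholly higher. In aged NSF against young heads 3 members lay wholly lower (mRpL43, mRpL51 and mRpS9), where 8.02% of all genes did.

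Between heads of aged SF and aged NSF flies no member was called by edgeR, where 0.033% of all genes fell and 0.22% rose. Counts at an unadjusted p under 0.05 were 1 lower (mRpS14, above) and 0 higher, and DESeq2 also called 0. The median log2 fold change of the members was -0.12, beside -0.01 for all genes, and 52 of 72 lay below 0 (72.2%, beside 50.9% of all genes). The next smallest p belonged to mRpL1, the large-subunit protein of the stalk beside the tRNA exit site. Its level was 12.6, 26.1, 29.9, 28.1 and 38.8 CPM in aged SF heads and 33.3, 47.1, 32.4, 40.3 and 36.5 in aged NSF heads. The log2 difference was -0.49 (adjusted p = 0.53, edgeR), with 1 aged SF head among the aged NSF values.

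Markers of other tissues moved in the same comparisons. Muscle markers summed to 1163 to 1556 CPM in aged SF heads, to 1442 to 1838 CPM in aged NSF heads and to 2801 to 3614 CPM in young heads, and 6 of 7 tested fell in aged SF and 5 of 7 in aged NSF heads. Fat body markers summed to 1054 to 2972 CPM in aged SF heads, to 990 to 2658 CPM in aged NSF heads and to 4144 to 6788 CPM in young heads, and of the 6 tested 2 fell in aged SF and 3 in aged NSF heads. Their part in the mRp values was not tested.

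In bodies of aged NSF flies against young flies, 12 of the 72 members rose and 1 fell (edgeR, adjusted over 12009 genes). Over all genes 21.7% rose and 19.4% fell, so the share of members that rose was below that of all genes, and so was the share that fell. The median log2 fold change of the members was 0.24, beside 0.03 for all genes, and 14 of 72 members lay below 0 (19.4%, beside 48.5% of all genes). Aged NSF bodies lay wholly above young bodies for 5 members (mRpL19, mRpL39, mRpL52, mRpL55 and mRpS25) and wholly below for 0. Of all genes tested 14% lay wholly above and 12.9% wholly below. At an unadjusted p under 0.05, 19 members were higher and 2 lower, and the counts over all genes at this threshold are not given here. By the number in the symbol, 4 of 42 members numbered as bacterial-type rose (median log2 fold change 0.22) and 8 of 30 numbered as mitochondrial-type rose (median 0.31). This split need not match the origin of each protein, and it was not tested.

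The gene mRpL55 (FBgn0038678, 3R:19094394-19094905, minus strand), a mitochondria-specific large-subunit protein, had the largest rise. Its level was 13.3, 8.39, 8.52, 9.63 and 8.54 CPM in aged SF bodies, 21.9, 18.02, 21.1, 19.96 and 22.7 in aged NSF bodies and 10.4, 8.09, 12.2, 8.25 and 8.63 in young bodies. All aged NSF bodies lay above all aged SF and all young bodies, and the aged SF and young groups overlapped. It rose by 1.12 on the log2 scale in aged NSF against young bodies (SE 0.195, adjusted p = 0.000565, edgeR).

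The gene mRpL1 (FBgn0037566, 3R:8301440-8302770, plus strand) had 17.8, 23.7, 23.0, 21.8 and 25.3 CPM in aged SF bodies, 32.6, 22.3, 36.8, 34.4 and 36.9 in aged NSF bodies and 25.3, 21.5, 15.4, 18.6 and 21.8 in young bodies. Of the aged NSF bodies only library 2 overlapped the young group. It rose by 0.67 on the log2 scale in aged NSF against young bodies (SE 0.18, adjusted p = 0.00948, edgeR). The gene mRpL52 (FBgn0033208, 2R:7673721-7674400, minus strand), also specific to mitochondria, had 14, 14.4, 18.2, 14.4 and 22.7 CPM in aged SF bodies, 23.0, 21.5, 26.4, 25.97 and 32.4 in aged NSF bodies and 16.9, 20.2, 14.1, 14.8 and 14.9 in young bodies. All aged NSF bodies lay above all young bodies, and it rose by 0.67 on the log2 scale (SE 0.186, adjusted p = 0.0114).

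The gene mRpS11 (FBgn0038474, 3R:17072732-17073795, plus strand), a bacterial-type small-subunit protein, had 17.7, 19.2, 19.3, 22 and 22 CPM in aged SF bodies, 24.7, 19.3, 29.4, 29.6 and 26.5 in aged NSF bodies and 19.8, 9.33, 17.18, 19.9 and 15.6 in young bodies. It rose by 0.67 on the log2 scale in aged NSF against young bodies (SE 0.202, adjusted p = 0.0166, edgeR), with 1 aged NSF body inside the young range. The gene mRpL28 had 64.2, 61.7, 75.5, 71.3 and 60.4 CPM in aged SF bodies, 81.8, 104, 84.5, 100.3 and 127 in aged NSF bodies and 74.5, 59.6, 63.5, 72.2 and 85.6 in young bodies. It rose by 0.48 on the log2 scale (SE 0.15, adjusted p = 0.0193), with 2 aged NSF bodies below the highest young body, and its adjusted p was 0.0501 without young body 2 and also without young body 3. The other members that rose, outside the naming rule, were mRpS2, mRpL45, mRpS22, mRpL39, mRpS25, mRpS30 and mRpL38, with log2 fold changes between 0.43 (mRpS22) and 0.79 (mRpS25). Without young body 2, and likewise without young body 3, 5 members rose in place of 12, and with only the compared groups fitted 6 rose.

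The only member that fell with age in bodies was mRpS10 (FBgn0038307, 3R:15229665-15230516, plus strand), a bacterial-type protein of the small-subunit head. Its level was 14.6, 17.4, 20.5, 18.2 and 12.8 CPM in aged SF bodies, 15.3, 14.2, 20.7, 9.86 and 20.1 in aged NSF bodies and 24.4, 20.7, 36.5, 34.7 and 23.3 in young bodies. All aged SF bodies lay below all young bodies, and the aged NSF and young groups overlapped by 1 library on each side. It fell by 0.79 on the log2 scale in aged NSF bodies (SE 0.231, adjusted p = 0.0146, edgeR) and by 0.73 in aged SF bodies (SE 0.229, adjusted p = 0.0408). The second call was lost without young body 3 or 4 or without aged SF body 1, 2, 4 or 5, with adjusted p between 0.0601 and 0.121. Without young body 2, and likewise without aged NSF body 3, 2 members in place of 1 fell in aged NSF against young bodies.

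In bodies of aged SF flies against young flies mRpS10 was the single member called, 1 of 72 lower and 0 higher, where 3.26% of all genes fell and 11.1% rose. The share of all genes that fell depended on the fit. With relative log expression scaling the split over all genes was 977 higher and 489 lower, in place of 1336 higher and 391 lower, and 4 members fell. With only the compared groups fitted, 1637 genes were higher and 1732 lower, and 2 members fell. Without aged NSF bodies 1 and 2, 1637 genes were higher and 1765 lower, and 5 members fell. DESeq2 called 5 members lower and 0 higher, with 779 genes lower and 1365 higher in all. There were 6 members lower and 0 higher at an unadjusted p under 0.05, without the counts over all genes at this threshold. The median log2 fold change of the members was -0.11, beside 0.02 for all genes, and 48 of 72 lay below 0 (66.7%, beside 48.8% of all genes). Aged SF bodies lay wholly below young bodies for 1 member, mRpS10, and wholly above for 0. Of all genes tested 4.72% lay wholly below and 9.11% wholly above. The count of members that fell was 0 without young body 3, young body 4, aged SF body 1, aged SF body 2 or aged SF body 4, 2 without young body 2, and 5 without aged NSF body 1. The counts over all genes in these fits are not given here.

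**Figure D3:**
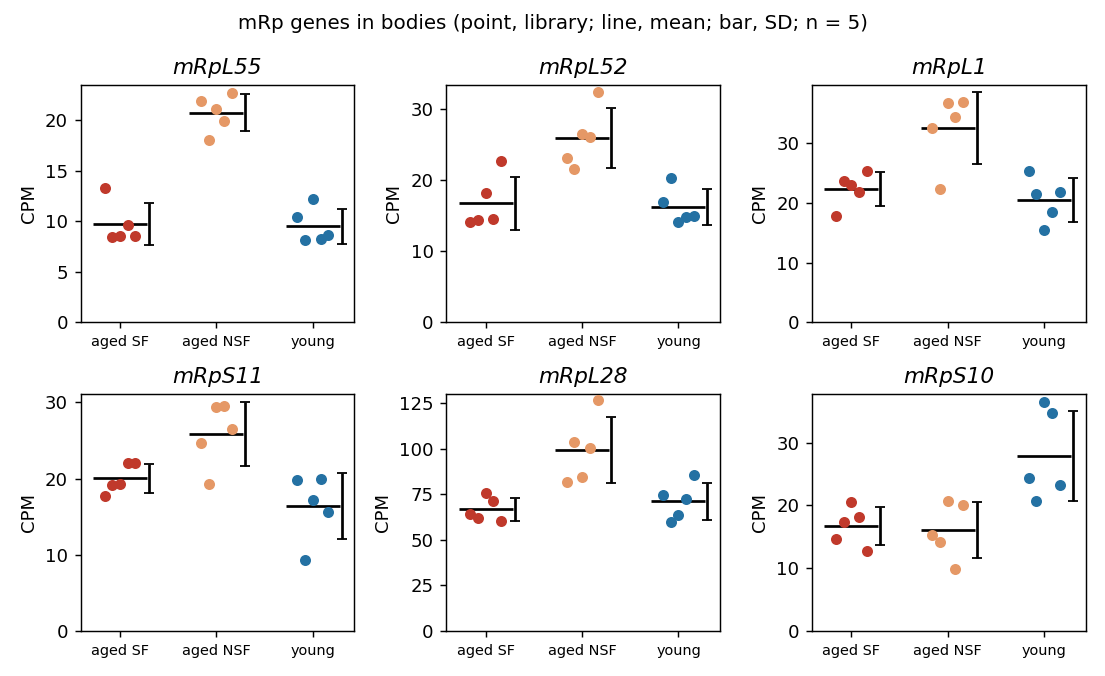
Level in CPM of 6 mRp genes in bodies, 1 point per library, for aged SF, aged NSF and young flies, with the group mean (line) and SD (bar), n = 5 each. For mRpL55 the aged SF bodies lie at 8.39 to 13.3 CPM, the aged NSF bodies at 18.02 to 22.7 and the young bodies at 8.09 to 12.2, and for mRpS10 the mean is 16.7 CPM in aged SF, 16 in aged NSF and 27.9 in young bodies, with the aged NSF and young groups just overlapping.

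Between bodies of aged SF and aged NSF flies no member was called by edgeR, nor any other gene (0% of 12009). At an unadjusted p under 0.05, 18 members were lower and 0 higher, against 1071 lower and 1015 higher among all genes. DESeq2 called 9 members lower and 0 higher, with 438 genes lower and 202 higher in all. The log2 fold change was below 0 for 69 of the 72 members (95.8%, beside 48.1% of all genes), with a median of -0.32 beside 0.02 for all genes. The smallest p belonged to mRpL55 (log2 fold change -1.09, SE 0.195, adjusted p = 0.0608, edgeR) and mRpL28 (-0.58, SE 0.151, adjusted p = 0.1), whose values are given above. Aged SF bodies lay wholly below aged NSF bodies for 8 members (mRpL10, mRpL28, mRpL41, mRpL48, mRpL55, mRpS22, mRpS25 and mRpS35) and wholly above them for 0, where 3.03% of all genes lay wholly below and 3.6% wholly above. This comparison and that of aged NSF with young bodies use the same 5 aged NSF bodies.

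The aged NSF bodies that stood apart bear on these counts. Without aged NSF bodies 1 and 2, 3 members fell in aged SF against aged NSF bodies, among them mRpL55 (adjusted p = 0.0305) and mRpL28 (adjusted p = 0.0488), and the median of the members was -0.40. Leaving out aged NSF body 1 alone also gave 3, and leaving out young body 1 gave 1. In aged NSF against young bodies 9 members rose and 1 fell without the 2 libraries, with a median of 0.27, where 2446 genes rose and 2567 fell in all. In aged SF against young bodies 5 members fell, where 1637 genes rose and 1765 fell in all, in place of 1336 and 391 with the 2 libraries. Over all genes the comparison of aged SF with aged NSF bodies then held 105 that rose and 100 that fell.

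Markers of body tissues differed between the groups. Muscle markers summed to between 2196 and 3389 CPM in aged SF bodies, 3275 and 5056 in aged NSF bodies and 6048 and 7073 in young bodies, and 6 of 8 fell in each aged group against young bodies. Testis markers summed to between 2492 and 3345 CPM in aged SF bodies, 303 and 2983 in aged NSF bodies and 2611 and 5427 in young bodies. Accessory gland markers summed to between 898 and 3567 CPM in aged SF bodies, 1420 and 5157 in aged NSF bodies and 3800 and 5265 in young bodies. In aged NSF against young bodies 5 of 8 testis markers fell (median log2 fold change -1.09). Head markers summed to between 146 and 171 CPM in aged SF bodies, 144 and 667 in aged NSF bodies (184 or less without library 2) and 95.2 and 149 in young bodies. Of 7 tested 4 rose in aged NSF bodies (median 0.88, library 2 included) and 1 in aged SF bodies (0.14). In library 2 ninaE stood at 377 CPM, against a median of 12.9 in aged NSF and 9.68 in young bodies. The medians in aged NSF and young bodies were 59.5 and 31.4 CPM for norpA, 33.2 and 18.4 for elav, and 0.531 and 2.05 for trp. Of 6 fat body markers 3 rose and 1 fell in aged NSF against young bodies (median 1.28, library 2 included), and 0 rose and 1 fell in aged SF bodies. The yolk genes Yp1, Yp2 and Yp3 of this list had 336, 172 and 299 CPM in aged NSF body 2. Their medians were 23.8, 11.7 and 24.3 CPM in aged NSF and 9.62, 4.66 and 12.1 in young bodies. Those of Lsp2, Cyp6g1 and Rfabg were 6.26, 215 and 1250 CPM in aged NSF and 260, 342 and 1300 in young bodies. The summed fat body markers averaged 1688 CPM in aged NSF and 1944 in young bodies. Their part in the mRp values was not tested.

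The difference between head and body in the change with age was tested as an interaction in a fit of all 30 libraries, taken as independent. For aged NSF against young flies it was negative for 4 of 72 members and positive for 0, where 8.83% of all genes were negative and 4.34% positive. The 4 were mRpS9 (log2 difference -1.01, SE 0.219, adjusted p = 0.00309, edgeR), mRpL28 (-0.90, SE 0.217, adjusted p = 0.00667), mRpL55 (-1.34, SE 0.343, adjusted p = 0.00979) and mRpL43 (-1.10, SE 0.35, adjusted p = 0.0343). For aged SF against young flies it was negative for 3 members and positive for 0, where 5.24% of all genes were negative and 1.62% positive. The 3 were mRpS9 (-1.11, SE 0.219, adjusted p = 0.00177), mRpS14 (-1.26, SE 0.389, adjusted p = 0.0455) and mRpS11 (-1.22, SE 0.383, adjusted p = 0.0492). For mRpS9 the interaction passed in all 30 fits that left out 1 library, in both comparisons. The interactions of mRpL43, mRpS14 and mRpS11 passed in 18, 10 and 10 of the 30 fits, with a highest adjusted p of 0.164, 0.218 and 0.231. That of mRpL28 was lost without young body 2 (adjusted p = 0.0807) or young body 3 (0.0764), and that of mRpL55 without young body 2 (0.0613) or young body 5 (0.054). The median of the members was -0.37 beside -0.09 for all genes in the first, and -0.26 beside -0.15 in the second. With 1 library left out the member median ran over -0.48 to -0.09 in the first (-0.09 without young body 2) and over -0.32 to 0.05 in the second, where it was above 0 without young body 2 (0.05) and without young body 3 (0.02).

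These interactions depend on the scaling between tissues. With relative log expression scaling the median of all genes was 0.12 and that of the members -0.16 for aged NSF against young flies, and the split over all genes turned to 833 positive and 534 negative, against 534 positive and 1088 negative before. For aged SF against young flies the split was 343 positive and 250 negative, against 200 and 645, and the median of the members was -0.05 beside 0.06 for all genes. The interactions of mRpL43, mRpS14 and mRpS11 did not pass under this scaling (adjusted p = 0.105, 0.125 and 0.123). With only the compared groups fitted, those of mRpL28 (adjusted p = 0.0687), mRpL55 (0.0572) and mRpL43 (0.117) did not pass. Without young body 2 the number of negative members for aged NSF against young flies was 1, without young body 3 or 5 it was 2, and without young head 1 it was 7. For aged SF against young flies the number was 5 without young head 1 and 1 in each of 15 other fits: without young head 3, 4 or 5, aged SF head 1, 2 or 3, aged NSF head 1 or 3, young body 2, 3 or 5, aged SF body 1 or 4, or aged NSF body 3 or 4.

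Young heads were set against young bodies to place the genes by tissue, with all libraries taken as independent. Of the 72 members 13 were higher in heads and 14 lower, where 27.7% of 12318 genes were higher and 43.1% lower (edgeR). With relative log expression scaling 8 members were higher and 20 lower, and with no filter on low counts 19 and 3. The median log2 ratio of the members was -0.05 beside -0.27 for all genes, and -0.18 beside -0.40 with the other scaling, a difference of 0.21 in both. With 1 library left out the median of the members ran over -0.17 to 0.03, so its sign is not settled. Without young body 2, 3 or 5 the number higher in heads was 5, 6 or 8. The 8 named below kept their direction under every alternative run.

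Of the genes with the largest ratio, mRpL48, a mitochondria-specific large-subunit protein, had 11.4, 30.7, 40.8, 33.3 and 35.0 CPM in young heads and 11.4, 13.2, 10.8, 24.5 and 11.2 in young bodies, on the scale of all 30 libraries. It was higher in heads by 1.11 on the log2 scale (SE 0.26, adjusted p = 0.000358, edgeR), although the first young head lay inside the range of the bodies, and 20.8% of its exon sequence is shared with other genes. The gene mRpS25 had 25.2, 31.7, 35.6, 35.1 and 38.1 CPM in young heads and 14.3, 6.77, 19.9, 19.5 and 24.0 in young bodies, without overlap. Its log2 ratio was 0.98 (SE 0.246, adjusted p = 0.000723). The ratio was 0.83 for mRpS9 (97.3 ± 16.2 CPM in heads and 54.7 ± 5.36 in bodies, SD, n = 5 each) and 0.83 for mRpS14 (32.2 ± 13.8 and 18.2 ± 4.81). The call of mRpS14 was lost without young head 4 (adjusted p = 0.0608) and without young body 3 (adjusted p = 0.0504).

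Lower in young heads were mRpS10 and mRpS7, both bacterial-type proteins of the small-subunit head. The gene mRpS10 had 12.2, 18.6, 16.3, 10.4 and 13.9 CPM in young heads and 27.2, 23.1, 40.7, 38.6 and 25.9 in young bodies, and mRpS7 had 21.9, 20.5, 28.6, 18.5 and 32.02 CPM in young heads and 54.9, 37.5, 47.5, 53.9 and 62.5 in young bodies. Neither overlapped between tissues. Their log2 ratios were -1.11 for mRpS10 (SE 0.245, adjusted p = 0.000174) and -1.08 for mRpS7 (SE 0.181, adjusted p = 3.91e-06). The log2 ratio was -0.87 for mRpS18B (11.3 ± 3.78 CPM in heads and 20.6 ± 3.28 in bodies) and -0.85 for mRpL42 (10.6 ± 3.06 and 19.2 ± 6.21), and with no filter on low counts these did not pass (adjusted p = 0.0576 and 0.0627). Heads lay wholly above bodies for 3 members, where 20% of all genes did, and wholly below for 4, where 37.1% did.

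By chromosome, 6 of the 11 members on X were higher in young heads and 1 lower, with a median log2 ratio of 0.53, while of the 61 tested on autosomes 7 were higher and 13 lower, with a median of -0.09. Among all genes 702 of 1871 on X were higher and 595 lower (median 0.13), and 2628 of 10201 on autosomes were higher and 4635 lower (median -0.37). The median was higher on X than on autosomes both for the members and for all genes, and no test was made between chromosomes.

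**Figure D4:**
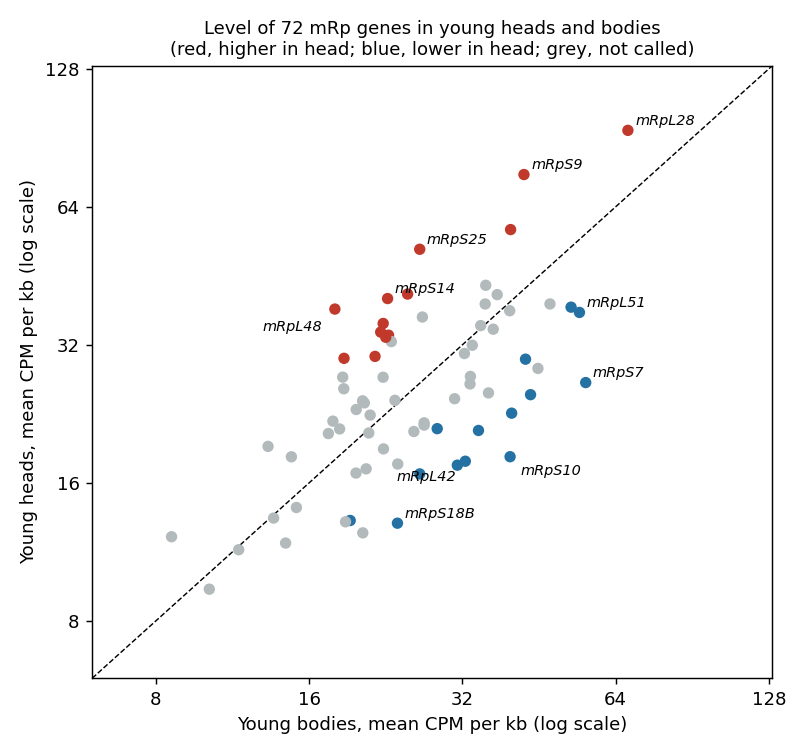
Mean level of the 72 measured mRp genes in young heads (vertical axis) against young bodies (horizontal axis), in CPM per kb of exon on log scales, 1 point per gene, with the line of equal level. Red points were higher and blue points lower in heads in the edgeR test, 13 and 14 genes with this scaling and 8 and 20 with relative log expression scaling.

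The other mitoribosomal protein genes, tko and bonsai, were read in the same fits. For tko the level was 21.1, 20.8, 18.2, 20.1 and 12.8 CPM in aged SF heads, 19.9, 24.2, 25.7, 30.7 and 28.1 in aged NSF heads, against 29.1, 27.5, 27.9, 34.4 and 41.8 in young heads. It fell by 0.79 on the log2 scale in aged SF against young heads (SE 0.216, adjusted p = 0.008, edgeR), without overlap. In aged NSF against young heads its log2 fold change was -0.32 (adjusted p = 0.299), in aged NSF against young bodies 0.40 (adjusted p = 0.092) and in aged SF against aged NSF bodies -0.56 (adjusted p = 0.159, and 0.0398 with DESeq2). For bonsai no comparison within a tissue passed: the log2 fold change was -0.23 in aged SF and -0.52 in aged NSF heads against young heads (adjusted p = 0.594 and 0.178), and 0.16 in aged SF and 0.40 in aged NSF bodies against young bodies (adjusted p = 0.591 and 0.101). Without aged NSF bodies 1 and 2 the rise in aged NSF bodies passed for both tko (adjusted p = 0.0461) and bonsai (0.038).

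The rest of mitochondrial translation was read from lists of genes chosen by function. Among mitochondrial translation factors 3 of 13 fell in aged SF heads and 1 in aged NSF heads against young heads, and 0 rose. They included EfTuM, the mitochondrial elongation factor Tu, with 78.3, 85.5, 80.5, 62.2 and 119 CPM in aged SF heads and 92.1, 107, 115.3, 208 and 135 in young heads. Its groups overlapped, and it fell by 0.63 on the log2 scale (SE 0.19, adjusted p = 0.0162, edgeR, and 0.0881 without young head 4 and 0.055 without aged SF head 4). Among mitochondrial tRNA synthetases 3 of 16 fell and 1 rose in aged SF heads, and 2 fell and 0 rose in aged NSF heads. Among genes of mitochondrial transcription, replication and RNA handling 0 of 13 passed in either head comparison. At an unadjusted p under 0.05, 0 rose and 2 fell in aged SF heads, and 1 rose and 2 fell in aged NSF heads.

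In bodies, 0 translation factors rose and 3 of 13 fell in aged NSF against young flies, and 2 of 16 synthetases rose and 4 fell. Of the translation factors CG6404 fell by 1.02 on the log2 scale (SE 0.258, adjusted p = 0.00713, edgeR) and CG6412 by 0.91 (SE 0.248, adjusted p = 0.0104), and of the synthetases CG8257 fell by 1.11 (SE 0.263, adjusted p = 0.00463). These 3 passed in all 15 fits that left out 1 body library, and fits without both aged NSF bodies 1 and 2 are not given for them. In young flies the log2 ratio of heads to bodies was -2.53 for CG6412 and -3.53 for CG8257, and is not given for CG6404. Aged NSF body 1, with the low testis markers, had summed translation factors at 383 CPM and synthetases at 350 CPM. The other aged NSF bodies had 536 to 594 and 524 to 619 CPM. The part of the testis in these falls was not tested. The synthetase-related gene Slimp, a paralog of mitochondrial seryl-tRNA synthetase, rose by 1.11 on the log2 scale (SE 0.269, adjusted p = 0.0056). Of 14 genes of mitochondrial gene expression 2 rose, TFAM, which packages mitochondrial DNA, by 0.38 (adjusted p = 0.0346) and bsf, which acts on mitochondrial mRNAs, by 0.44 (adjusted p = 0.0443), which passed in 6 of the 15 fits. Both calls were lost with no filter on low counts and with only the compared groups fitted. Without young body 2 or 3, both were lost as well.

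Nuclear oxidative phosphorylation genes, most of whose complexes also hold products of the mitoribosome, were set beside the mRp genes. Of 67 tested 59 fell in aged SF heads (median log2 fold change -0.89) and 60 in aged NSF heads (-0.77), and 0 rose. In bodies 52 of 69 fell in aged SF flies (median -0.63) and 6 in aged NSF flies (-0.21). Of the cytosolic ribosomal protein genes in heads, 7 of 84 rose and 4 fell in aged SF flies (median -0.08) and 4 rose and 1 fell in aged NSF flies (0.05). In bodies 20 of 92 cytosolic genes rose and 0 fell in aged SF flies (median 0.28) and 81 rose and 3 fell in aged NSF flies (0.77). The mRp medians in these comparisons were -0.28 in aged SF and -0.10 in aged NSF heads, and -0.11 in aged SF and 0.24 in aged NSF bodies. Of 16 genes of the mitochondrial genome, 1 rose and 11 fell in aged SF heads (median -0.97), and 1 rose and 9 fell in aged NSF heads (-0.49). In bodies 9 of 17 rose in aged SF flies (0.66) and 11 in aged NSF flies (0.82), and 0 fell. Summed over all 37 listed genes, the level averaged 92076 ± 12815 CPM in aged SF bodies (SD, n = 5, scale of all 30 libraries). It averaged 112163 ± 13642 CPM in aged NSF and 112003 ± 31164 CPM in young bodies, so the sum did not follow the median gene.

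In aged SF against aged NSF bodies the medians of the cytosolic ribosomal protein genes (-0.48, 85 of 92 below 0) and of the nuclear oxidative phosphorylation genes (-0.43, 66 of 69 below 0) were negative as that of the mRp genes was, and none of these genes was called by edgeR. At an unadjusted p under 0.05, 81 cytosolic ribosomal protein genes and 52 oxidative phosphorylation genes were lower and 0 of either list higher. Differences between lists were not tested.

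**Figure D5:**
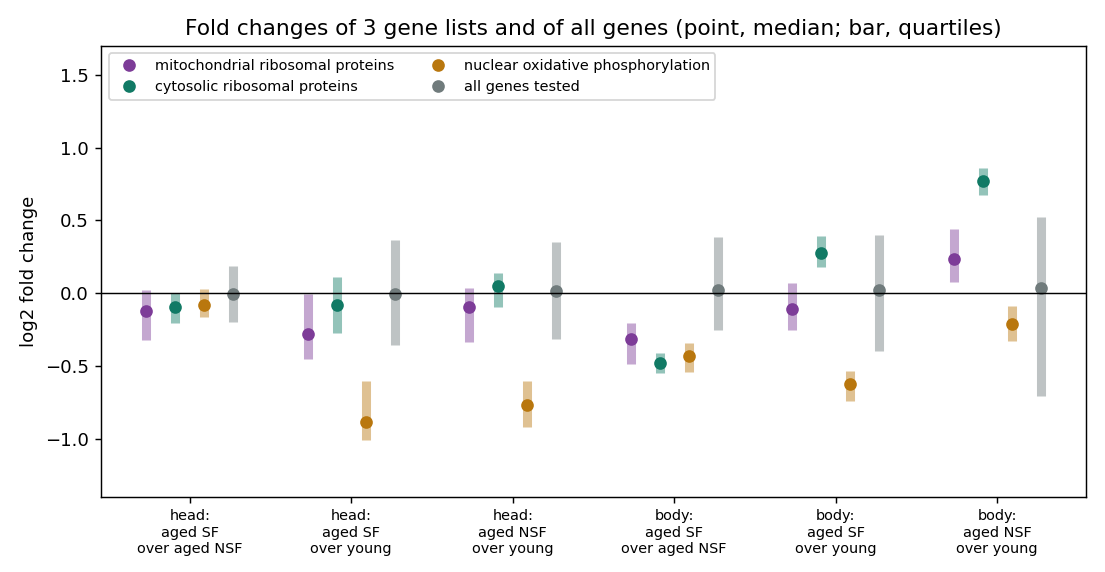
Log2 fold changes of mRp genes, cytosolic ribosomal protein genes, nuclear oxidative phosphorylation genes and all genes tested in the 6 comparisons within heads or bodies (point, median; bar, lower to upper quartile). The mRp median is -0.28 in aged SF against young heads and 0.24 in aged NSF against young bodies, and in aged SF against aged NSF bodies the medians of all 3 lists lie between -0.32 and -0.48.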

How the data were processed

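Counts of reads on exons were deposited by the authors as raw, unnormalized whole numbers. Per the labels' protocols and the study design text, the reads were adapter-trimmed, mapped to dm6 with STAR, kept at a mapping quality of 8 or more and counted with HTSeq, and the authors ran DESeq2. Their tool versions are not given in the sources used here, and their table of comparisons is not used here. Counts were tested with edgeR 4.0.16 (R 4.3.3; TMM, filterByExpr by group, robust quasi-likelihood fit of the 15 heads, the 15 bodies or all 30 libraries), adjusted over all genes tested, with a call at an adjusted p under 0.05. The steps were tested on simulated data. Libraries of a group were compared in pairs, and the lowest chi-square per degree of freedom was 4.5, so none was a copy. P-values measure the spread between these libraries, each of 1 head or body. CPM were computed from the counts with TMM factors. Coordinates and exon lengths are those of a current Ensembl annotation of the same build, in which 71 members were matched by gene ID and 2 by symbol. No sequences are given.

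The members, gene lists and tests were chosen with earlier results of these data known. Named were up to 5 called members per direction with the smallest adjusted p in each comparison within a tissue (the 2 with the smallest p where none passed), the 4 called members with the largest fold change in each direction between tissues, up to 4 per interaction, the 4 highest and 2 lowest in level per kb, every member that failed the filter, tko and bonsai, and up to 2 called genes of each other list. For the counts by type, bacterial-type members are those numbered up to 36 (large) or 21 (small subunit) in the symbol, which need not match the origin of each protein. Alternatives were relative log expression scaling, no filter on low counts or a stricter one (5 CPM or more in 5 or more libraries), DESeq2 1.42.0, only the compared groups, a replicate block, and fits without single libraries or without aged NSF bodies 1 and 2.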

Additional observations from a re-analysis of the deposited data

Results flagged for a closer look

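Among 144 sets of 5 libraries looked at, 6 held 1 library far from the other 4, where chance gives about 1 in 20. These were a high mRpL43 in aged SF head 4 (22.4 CPM), a high mRpL43 in aged NSF body 5 (41.2 CPM), a high mRpL51 in aged SF body 3 (38.2 CPM), a high mRpL55 in aged SF body 1 (13.3 CPM), a high mRpS18B in aged SF body 5 (26.3 CPM) and a high mRpL48 in young body 4 (22 CPM). All are levels on the scale of the library's own tissue.

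Some members differed between heads and bodies in the change with age by the interaction test of edgeR. For aged NSF against young flies the log2 difference, head minus body, was -0.90 for mRpL28 (adjusted p = 0.00667), -1.10 for mRpL43 (0.0343), -1.01 for mRpS9 (0.00309) and -1.34 for mRpL55 (0.00979). For aged SF against young flies it was -1.11 for mRpS9 (0.00177), -1.22 for mRpS11 (0.0492) and -1.26 for mRpS14 (0.0455). Over all genes 8.83% were negative in the aged NSF and 5.24% in the aged SF comparison. The calls of mRpL43, mRpS11 and mRpS14 were lost with relative log expression scaling and in many of the fits that left out 1 library.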

How the results depend on the processing

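Counts of called members moved by over 1.5 times under these settings. With relative log expression scaling, 2 fell in aged NSF and 4 in aged SF against young bodies, 8 were higher in young heads than bodies, and for aged SF against young flies 1 interaction was positive and 1 negative. With DESeq2, 2 fell in aged NSF and 5 in aged SF against young bodies, 9 fell in aged SF against aged NSF bodies, and 1 interaction was positive for aged NSF and 1 positive and 1 negative for aged SF flies. With no filter on low counts, 2 fell in aged NSF against young heads, 3 were lower in young heads than bodies and 1 interaction was negative for aged SF flies. With the stricter filter, 2 fell in aged NSF against young bodies. With only the compared groups, 2 fell in aged NSF against young heads, 6 rose in aged NSF and 2 fell in aged SF against young bodies, 8 were lower in young heads than bodies, and 1 interaction was negative in each comparison. Without aged NSF bodies 1 and 2, 5 fell in aged SF against young and 3 in aged SF against aged NSF bodies, where 1765 and 100 genes fell in all.

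Leaving out 1 library at a time, the members that fell ranged from 2 to 6 in aged NSF and 4 to 10 in aged SF against young heads (rises 0 to 1), and stayed at 0 in aged SF against aged NSF heads. In bodies 5 to 13 rose and 1 to 2 fell in aged NSF against young flies, 0 to 5 fell in aged SF against young flies and 0 to 3 in aged SF against aged NSF flies. In young heads 5 to 14 were higher and 10 to 18 lower than in bodies. Interactions were negative for 1 to 7 (aged NSF) and 1 to 5 (aged SF) members, and positive for 0 to 1 in both. The log2 ratio of bonsai between young heads and bodies was 0.02 and turned to -0.12 with relative log expression scaling, -0.12 with DESeq2 and -0.0003 with the replicate block, and ranged from -0.20 to 0.21 with 1 library left out. The cause of these shifts was not tested.

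The labels do not say which libraries are paired, so deviations from the group mean were correlated between same-numbered libraries. Within a tissue the correlation lay between -0.154 and 0.482, over 0.1 in 8 of 30 pairs. There 9 of 30 libraries correlated best with their own number. Between head and body it lay between 0.033 and 0.245, over 0.1 in 10 of 15. Of 15 heads, 14 correlated best with the body of their own number, which comes from the data and not from the design. Tests between tissues treated all libraries as independent. Their result with same-numbered head and body taken as a pair was not tested. The replicate block gave same-numbered libraries of all fitted groups a common effect, so it does not treat a head and a body of 1 fly as a pair. With the replicate block, 2 members fell in aged SF against young bodies and 1 interaction was positive for aged SF flies. Other counts of called members moved by less than 1.5 times with it. A member had a median of 44.0 to 91.0 reads per library across the groups, and what size of change this depth can show was not tested.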
